A study of Mus musculus with 9 samples.

Results

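Transcript levels of 7 transcription factors that oocytes use to form and grow follicles were examined in XX, XO and XY mouse oocytes. The genes are Figla, Sohlh1, Sohlh2, Nobox, Lhx8, Pou5f1 and Sall4. They were chosen by name, not by their values, out of 28052 genes in the count matrix, and 5 of them passed the filter on low counts that left 10993 genes for testing. Sohlh1 and Pou5f1 did not pass and are described by their counts.

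The data come from 9 samples, 3 per genotype, and each sample held the RNA of 30 growing oocytes collected from females at 18 days post partum. In every sample, 10 oocytes measured 50–55 μm and 20 measured 55–60 μm across, so that size was matched by design. The libraries were made with Smart-seq3, in which a random tag at the 5′ end of each cDNA, the unique molecular identifier (UMI), lets copies made by PCR be counted once. The UMIs assigned to genes numbered from 2130145 to 3157338 per sample.

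The sample labels give C57BL/6 as the strain of all samples. XY females carried the Y chromosome of B6.Y TIR males, which often fails to direct testis formation on this background, and the XX females were their littermates. XO females were obtained from males carrying Paf (patchy fur), an X-linked mutation backcrossed from C3H/HeSnJ to B6. The XX samples are therefore littermate controls of the XY but not of the XO samples, and the breeding scheme cannot be told apart from the second X chromosome in XX against XO, or from the Y chromosome in XY against XO, where both genotypes carry a single X. None of the 7 genes is X-linked or Y-linked. Oocytes of several females may be mixed in a pool, and a lower level per pool may reflect fewer oocytes with the transcript or less transcript in each, which cannot be told apart.

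These factors act in an order. SOHLH1 and SOHLH2 are germ cell basic helix-loop-helix (bHLH) proteins that bind E-boxes and act early, in oocytes of primordial follicles, where they are needed for normal levels of Lhx8, Nobox and Figla. FIGLA, another bHLH protein, is required to enclose oocytes in follicles and activates the zona pellucida genes through E-boxes, whereas the homeobox proteins NOBOX and LHX8 are needed when primordial follicles start to grow, and NOBOX activates Gdf9 and Pou5f1. POU5F1 (OCT4) and SALL4 are best known from pluripotent cells, and both are made again by growing oocytes.

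Promoters of the genes on which the results turn are shown first, since FIGLA and the SOHLH proteins recognise the E-box CANNTG and NOBOX recognises TAATTA or TAATTG. The sequences are the 250 bases before the RefSeq start site (GRCm38.p6), written 5′ to 3′ on the strand of the gene, with these motifs in capitals. Nobox (chr6:43309555-43309804, minus strand), Pou5f1 (the upstream of its 2 listed starts, chr17:35505782-35506031, plus strand), Zp3 (chr5:135979855-135980104, plus strand) and Bmp15 (chrX:6320725-6320974, minus strand) were chosen because the first 3 share a pattern among XO samples described below and Bmp15 is the lone window here with a homeobox motif.
Nobox: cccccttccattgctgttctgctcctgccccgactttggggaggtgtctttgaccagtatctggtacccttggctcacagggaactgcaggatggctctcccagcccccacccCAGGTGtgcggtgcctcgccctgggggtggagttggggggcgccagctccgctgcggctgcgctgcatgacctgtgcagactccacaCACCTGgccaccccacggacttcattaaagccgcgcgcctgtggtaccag
Pou5f1: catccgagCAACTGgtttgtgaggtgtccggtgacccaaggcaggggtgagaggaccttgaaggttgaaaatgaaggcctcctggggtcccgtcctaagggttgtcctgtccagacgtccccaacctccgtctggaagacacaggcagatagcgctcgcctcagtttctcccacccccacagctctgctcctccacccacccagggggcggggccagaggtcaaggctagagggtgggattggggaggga
Zp3: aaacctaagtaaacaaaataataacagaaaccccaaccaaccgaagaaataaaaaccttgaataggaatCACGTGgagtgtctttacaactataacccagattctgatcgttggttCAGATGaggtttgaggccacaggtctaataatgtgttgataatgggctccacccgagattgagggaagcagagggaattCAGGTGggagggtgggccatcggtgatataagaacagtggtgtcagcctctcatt
Bmp15: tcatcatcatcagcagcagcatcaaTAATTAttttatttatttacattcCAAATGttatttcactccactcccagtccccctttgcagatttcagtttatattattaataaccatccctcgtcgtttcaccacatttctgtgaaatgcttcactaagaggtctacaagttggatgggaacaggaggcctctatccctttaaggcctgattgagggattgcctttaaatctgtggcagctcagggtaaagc

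Of 32851 RefSeq promoter windows of 300 bases, 250 before and 50 after the start, 72.3% hold CANNTG and 12.4% hold TAATTA or TAATTG on either strand. The windows of Figla and Zp3 hold 4 E-boxes each, and 6.49% of all windows hold 4 or more. That of Sohlh1 holds 5, a number reached by 2.10%. Nobox has 2, Sohlh2 has 1, the Pou5f1 window shown has 1, and Lhx8 and Kdm5b have none. The study reports Kdm5b reads from its last exons only in these oocytes, so this annotated start may not be the one in use. TAATTA occurs in the Bmp15 window, 225 bases before the start, and neither homeobox motif occurs in any window of a member. Sall4, Zp1, Zp2 and Gdf9 were not matched in the promoter table. A match is a run of letters and not a measured binding site.

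**Figure D1:**
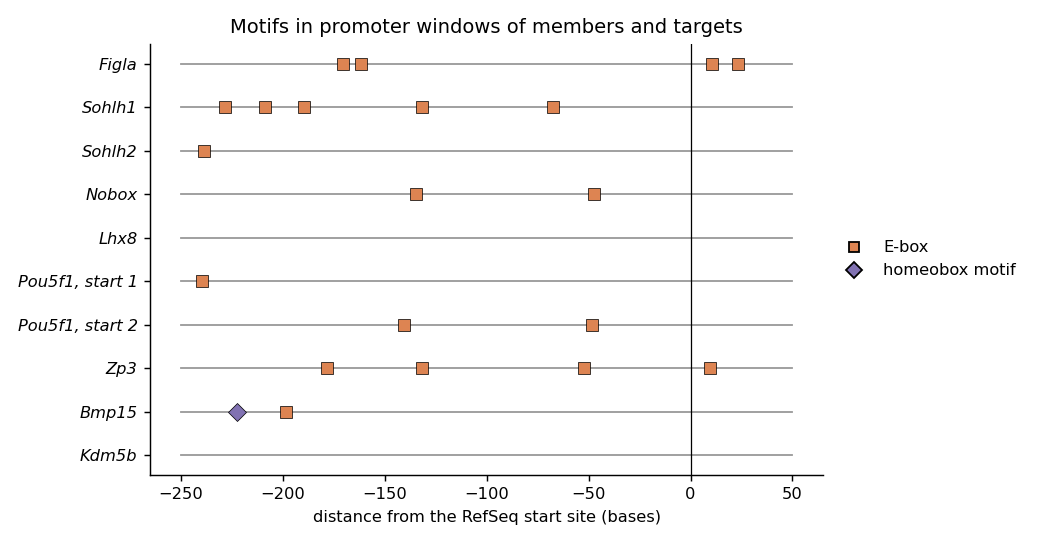
Positions of E-boxes (squares, CANNTG) and homeobox motifs (diamonds, TAATTA or TAATTG) in RefSeq promoter windows of 300 bases. The x axis is the distance from the start site in bases and each line is 1 window. Sohlh1 carries the most E-boxes, 5, and the diamond lies in the Bmp15 window.

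Levels are given as normalized CPM, the UMI count of a gene relative to all gene UMIs of the sample, scaled by the spike-in factor that the authors computed for each sample. A difference is given as log2 fold change of the first genotype minus the second, with its standard error (SE), from edgeR's quasi-likelihood test across all 10993 tested genes. A gene was called, and is said to be higher or lower, when its unadjusted p was below 0.05, the threshold of the study. The p printed beside a value is the one adjusted by Benjamini and Hochberg over all tested genes, and in the filtered fit it stayed above 0.05 for every gene named here. A total of 3 UMIs over a genotype, the one-sided limit that a count of 0 allows, was taken as the floor and equals 0.335 normalized CPM for the XX, 0.532 for the XO and 0.351 for the XY samples. The floor and the two-sided Poisson intervals below cover counting error only.

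Among the libraries XO1 stood apart. It differed from XO2 and XO3 for most of the genes described here, and the contrasts of the members with XO are given with and without it. XY1 was likewise the lowest XY sample for every tested member but Sall4. In the heatmap of the study, other samples, XX1, XO2 and XY1, were the ones less like the remaining replicates of their genotype. Ribosomal protein genes took 1.02% of the gene UMIs in XO1, and between 1.46 and 1.90% in the other 8 samples. Spike-ins made up 0.204–0.862% of all UMIs. All 8 oocyte markers were detected in every genotype. Summed granulosa cell markers reached 27.0–48.7 normalized CPM (XX), 14.5–47.4 (XO) and 29.7–63.4 (XY), mostly Cyp19a1 and Kitl, without which the sums were 3.56–5.79, 2.59–10.9 and 6.19–8.15. Summed markers of theca and stroma stayed at or below 8.55 and those of blood cells at or below 1.69. The part of these values in the results was not tested.

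In XX against XO oocytes, 2 of the 5 tested genes were called, Nobox and Sall4, both higher in XO. Of all tested genes, 18.1% were called in this contrast, 16.7% as higher in XO. This split of all genes depends on the processing. It was 154 called higher in XX and 1832 in XO as given here, 649 and 662 with TMM on the genes, and 290 and 53 with factors from the spike-in totals. With a surrogate variable as covariate (sva) it was 677 and 3487. A limma fit to the batch-regressed log2 values of the authors, described below, gave 3993 and 855. The study, which used surrogate variables as covariates, reports many autosomal genes as lower in XO than in XX and XY. In XY against XO oocytes the same genes, Nobox and Sall4, were again higher in XO, against 9.93% of all genes called, 8.24% as higher in XO, or 186 genes called higher in XY and 906 in XO, beside 593 and 404 with TMM on the genes and 63 and 73 with spike-in totals. With the replicate number as a block, 16.6% of all genes and the same 2 members were called in XY against XO. In XX against XY oocytes edgeR called 0 of the 5 at an unadjusted p below 0.05, beside 5.8% of all genes. DESeq2 also called 0 of the 5, beside 5.24% of all genes. After adjustment edgeR called 0 of the 5 in every contrast, and over all genes it called 0% in XX against XO, 0.0819% in XX against XY and 0.0364% in XY against XO. The XX against XO and XY against XO contrasts share the XO samples, so the second is no independent repeat of the first.

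The median log2 fold change of the 5 genes was -0.71 in XX against XO, where that of all tested genes was -0.46. It was -0.04 against -0.19 in XX against XY, and -0.67 against -0.30 in XY against XO. With the TMM factors of the spike-ins, 80.3% of all tested genes lay below 0 in XX against XO. Scaling on the genes themselves with TMM moved the median of all genes to -0.03 in XX against XO and to -0.02 in XY against XO, and scaling on the spike-in totals moved it to 0.42 and -0.11.

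**Figure D2:**
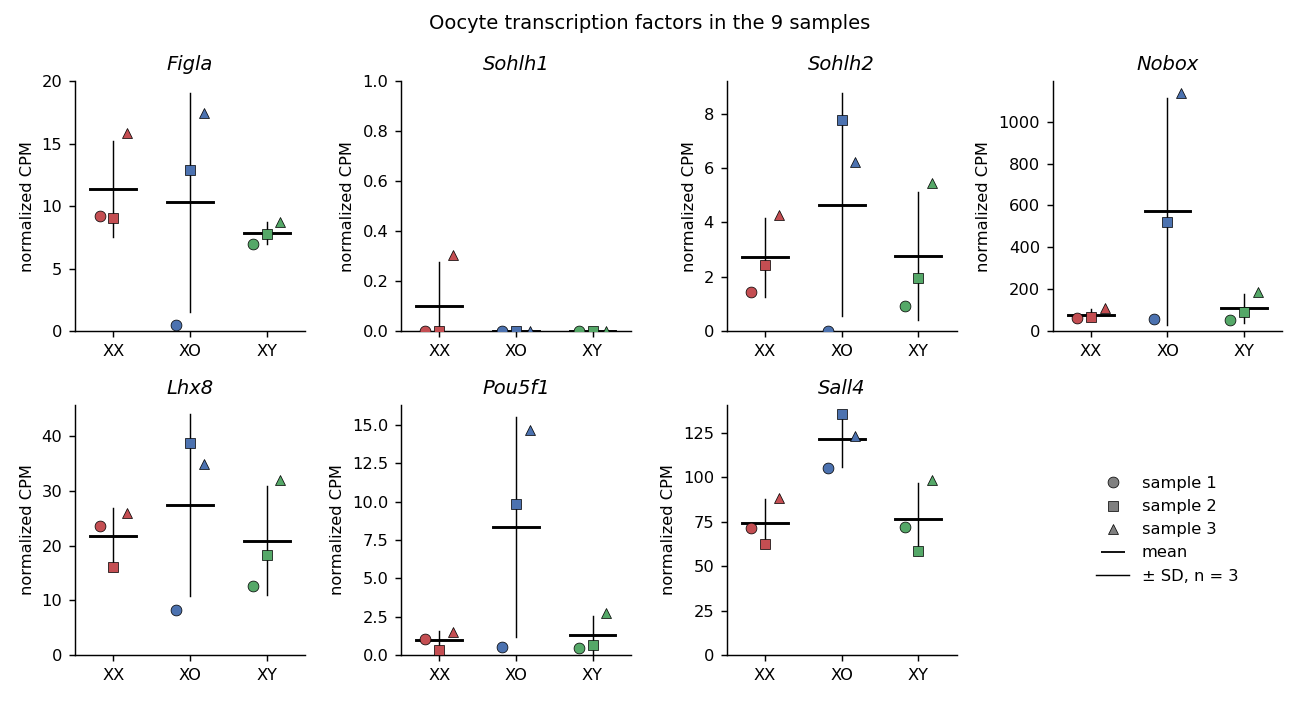
Normalized CPM of the 7 genes in each sample (circle, square and triangle for samples 1, 2 and 3), with the mean (thick line) and SD (thin line, ended at 0) of 3 samples per genotype. XO1 lies far below XO2 and XO3 in every panel but Sohlh1, which had 1 UMI in all, and Sall4, where the 3 XO samples sit between 105 and 136.

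Figla (ENSMUSG00000030001.4, chr6:86016171-86020996 in GRCm38, plus strand) was the bHLH member with the most UMIs, 229 over the 9 samples. XX samples had 9.26, 9.10 and 15.8 normalized CPM, XO samples 0.518, 12.9 and 17.5, and XY samples 6.97, 7.81 and 8.75. The value of XO1 rested on 1 UMI, with a Poisson interval (95%) of 0.0253 to 5.57 UMIs, whereas XO2 and XO3 had 25 and 31 UMIs.

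XO2 and XO3 fell within or just above the XX range, and XO1 lay below every other sample. The 3 XX samples were all above the 3 XY samples, a separation in this direction that 4.15% of all tested genes showed. The log2 fold change by edgeR was 0.15 (SE 0.73, adjusted p = 0.920) in XX against XO and 0.54 (SE 0.73, adjusted p = 1.00) in XX against XY. It was -0.38 (SE 0.75, adjusted p = 0.852) in XY against XO, and no contrast of Figla was called. Without XO1 it was -0.37 in XX against XO, so the direction turned, and -0.87 in XY against XO, which was then called at the unadjusted threshold.

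Sohlh1 (ENSMUSG00000059625.6, chr2:25842995-25847248, minus strand) had 1 UMI in XX3 and 0 in the other 8 samples. The levels lie below the floor of 3 UMIs in all 3 genotypes, and no fold change is given. Its expression is known to fall once oocytes leave the primordial stage.

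Sohlh2 (ENSMUSG00000027794.4, chr3:55182028-55209957, plus strand), the partner of SOHLH1, was detected at low levels. XX samples had 1.42, 2.45 and 4.27 normalized CPM from 4, 7 and 14 UMIs. XO samples had 0, 7.75 and 6.21 from 0, 15 and 11 UMIs. XY samples had 0.930, 1.95 and 5.43 from 2, 6 and 18 UMIs.

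For Sohlh2, XO2 and XO3 were the highest of the 9 samples and XO1 the lowest, and all 3 genotypes overlapped. No contrast was called by edgeR, with log2 fold changes of -0.75 (SE 0.96, adjusted p = 0.679) in XX against XO, -0.07 (SE 0.95) in XX against XY and -0.68 (SE 0.96, adjusted p = 0.792) in XY against XO. Without XO1 the first was -1.28 and still not called.

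Nobox (ENSMUSG00000029736.15, chr6:43303674-43309554, minus strand), whose promoter sequence with 2 E-boxes is given above, had the largest fold changes among the 5 tested members in both contrasts with XO. XX samples had 62.0, 67.2 and 109 normalized CPM, with a mean of 79.3 ± 25.6 (SD, n = 3). XO samples had 56.4, 522 and 1138, with a mean of 572 ± 543. XY samples had 51.6, 91.8 and 185, with a mean of 109 ± 68.3.

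XO2 and XO3 thus exceeded every XX and XY sample, whereas XO1 lay below all 3 XX samples, and the genotypes overlapped. The counts are large, with 1010 and 2016 UMIs in XO2 and XO3 against 109 in XO1, so that counting error is small beside the spread among XO samples. Relative to XO1, the level was 9.25 and 20.2 times as high in XO2 and XO3. The 3 XY samples also differed, XY3 having 3.58 times the level of XY1.

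The log2 fold change of Nobox was -2.85 (SE 0.90, adjusted p = 0.203) in XX against XO by edgeR, a 7.21-fold higher level in XO. It was -2.38 (SE 0.88, adjusted p = 0.485) in XY against XO, 5.22-fold higher in XO, and -0.46 (SE 0.84) in XX against XY, which was not called. Without XO1, where 35.1% of all genes were called in XX against XO and 29.9% in XY against XO, the differences grew to -3.36 and -2.85, and both stayed called, as they did with TMM scaling, at -2.27 and -1.98. Without XO3 they were -1.87, still called, and -1.40, no longer called. The call against XY was also lost without XY1 (-2.05) or XY2 (-2.21), and the call against XX without XX1 (-2.59).

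Lhx8 (ENSMUSG00000096225.7, chr3:154306294-154330659, minus strand), a LIM homeobox gene, differed less. XX samples had 23.5, 16.1 and 25.9 normalized CPM, XO samples 8.28, 38.8 and 35.0, and XY samples 12.5, 18.2 and 32.0.

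The 2 highest samples were XO2 and XO3 and the lowest was XO1, and all genotypes overlapped. The log2 fold change of Lhx8 by edgeR was -0.32 (SE 0.55, adjusted p = 0.758) in XX against XO, 0.05 (SE 0.54) in XX against XY and -0.38 (SE 0.55, adjusted p = 0.799) in XY against XO, none of which was called. Without XO1 it was -0.70 and -0.71 in the contrasts with XO, again without a call.

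Pou5f1 (ENSMUSG00000024406.16, chr17:35506018-35510772, plus strand), a gene that NOBOX activates, had few UMIs. XX samples had 3, 1 and 5 UMIs, or 1.07, 0.350 and 1.52 normalized CPM. XO samples had 1, 19 and 26 UMIs, or 0.518, 9.82 and 14.7. XY samples had 1, 2 and 9 UMIs, or 0.465, 0.651 and 2.72.

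XO2 and XO3 stood above the other 7 samples, and XO1 fell within the range of XX and XY samples, as seen for Nobox. Over the genotype, the Poisson interval of the UMI total was 4.12 to 17.1 for the 9 UMIs of XX and 33.7 to 61.4 for the 46 UMIs of XO, which covers counting error but not the spread between pools. When no filter on low counts was applied, edgeR gave a log2 fold change of -3.00 (SE 0.72, adjusted p = 0.00152) in XX against XO, -2.58 (SE 0.69, adjusted p = 0.0123) in XY against XO and -0.42 (SE 0.79) in XX against XY, which was not called. This fit is more liberal, since without the filter 5.61% of 28051 genes passed the adjusted threshold as higher in XO than in XX, where the filtered fit called 0%, and 2.60% as higher in XO than in XY. Without XO1 the gene passed the filter, and edgeR called it in both contrasts with XO, at -3.51 (SE 0.68, adjusted p = 0.00619) and -3.04 (SE 0.66, adjusted p = 0.0190). Of all genes, 35.1% and 29.9% were called in that fit. With 1 to 9 UMIs in XX and XY samples, Pou5f1 passed through XO2 and XO3, the samples where it is high. The p-values without XO1 are therefore a description and no independent support. The gene also passed the filter, and was called in XX against XO, without XX3, XY1, XY2 or XY3. An antisense gene of 53 UMIs in all, Gm19553, overlaps Pou5f1 on the other strand, and the authors describe their reads as stranded.

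Sall4 (ENSMUSG00000027547.17, chr2:168748332-168767943, minus strand), which encodes a zinc finger protein that growing oocytes need, had a smaller difference and the tightest XO samples. XX samples had 71.6, 62.3 and 88.7 normalized CPM, with a mean of 74.2 ± 13.4 (SD, n = 3). XO samples had 105, 136 and 123, with a mean of 121 ± 15.5. XY samples had 72.0, 58.6 and 98.7, with a mean of 76.4 ± 20.4.

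In normalized CPM all 3 XO samples, XO1 included, were above all XX and all XY samples. Such a separation with XO higher was seen in 13.6% of all tested genes against XX and in 6.34% against XY. XX and XY samples overlapped. The separation depends on the scaling, since the UMIs of the 3 genotypes overlapped. They were 201, 178 and 291 (XX), 203, 263 and 218 (XO) and 155, 180 and 327 (XY). The spike-in factors by which they were divided were 1.13, 1.17 and 1.25 (XX), 0.837, 0.847 and 0.703 (XO) and 1.01, 1.16 and 1.05 (XY). An antisense transcript gene with 50 UMIs over all samples, Gm14261, overlaps the start of Sall4.

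For Sall4 edgeR gave -0.71 (SE 0.29, adjusted p = 0.255) in XX against XO, a 1.64-fold higher level in XO, and -0.67 (SE 0.29, adjusted p = 0.501) in XY against XO. In XX against XY it was -0.04 (SE 0.29) and was not called. Without XO1 the values were -0.75 and -0.68, and both stayed called. Both calls depend on the scaling and were lost with TMM, at -0.27 from XX and -0.39 from XY, and with spike-in totals, at 0.26 and -0.42. The call in XX against XO was also lost on leaving out any 1 sample other than XO1, with values from -0.80 to -0.53, and that in XY against XO on leaving out any other than XO1 or XY3, with values from -0.67 to -0.41.

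**Figure D3:**
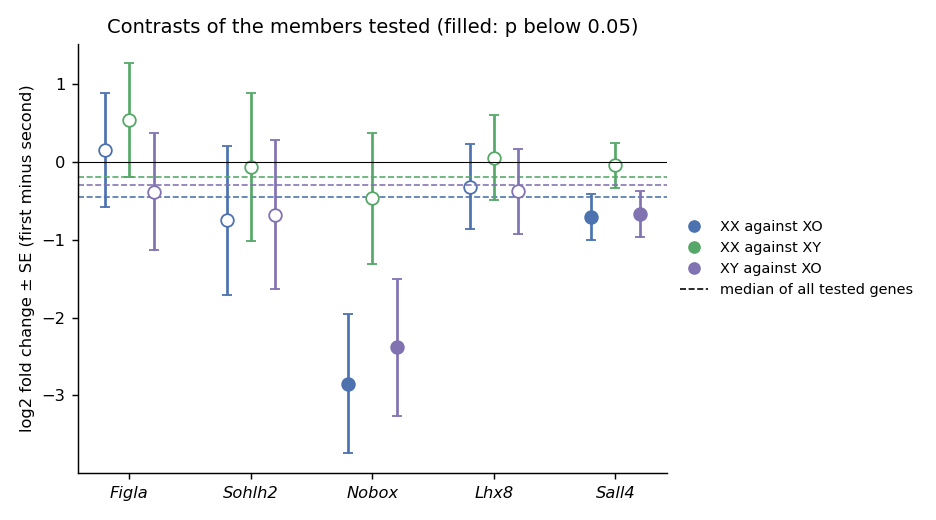
Log2 fold change (y axis, first genotype minus second) of the 5 tested genes in 3 contrasts, with SE as bars, filled points for an unadjusted p below 0.05 and dashed lines for the median of all tested genes in the contrast of the same colour. Nobox and Sall4 are filled in both contrasts with XO, and Nobox, at -2.85 and -2.38, lies farthest from the dashed lines.

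Ratios of UMIs within a sample do not depend on any scaling. Per UMI of Sall4, the XX samples had 0.866, 1.08 and 1.23 UMIs of Nobox, the XO samples 0.537, 3.84 and 9.25 and the XY samples 0.716, 1.57 and 1.87. For Lhx8 the XX samples had 0.328, 0.258 and 0.292, the XO samples 0.0788, 0.285 and 0.284 and the XY samples 0.174, 0.311 and 0.324. The Nobox ratio of XO2 and XO3 was thus above that of the other 7 samples, whereas their Lhx8 ratio was within the XX range and that of XO1 was the lowest. For Pou5f1 the ratio was 0.00493, 0.0722 and 0.119 in the XO samples, whereas it ranged from 0.00562 to 0.0172 in XX samples and from 0.00645 to 0.0275 in XY samples.

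The genes also differed in how widely the 3 samples of a genotype were spread, given as the highest over the lowest value of normalized CPM + 1. The XO samples spanned 19.8-fold for Nobox, 12.2-fold for Figla, 8.75-fold for Sohlh2 and 4.28-fold for Lhx8, but 1.29-fold for Sall4. The median tested gene spanned 2.43-fold in XO, 1.51-fold in XX and 1.73-fold in XY samples. Of all tested genes, 3.07% had a wider span in XO than Nobox and 91.7% a wider one than Sall4. In XX samples no tested member spanned more than the 2.17-fold of Sohlh2.

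The authors also deposited log2 values from which batch effects had been regressed out, and the differences of all 5 genes changed with them. For Figla the XX values were 3.99, 4.15 and 4.15, the XO values 1.30, 2.07 and 1.50, and the XY values 4.02, 3.67 and 2.85 on this log2 scale. The XO samples of Figla were thus drawn together and placed below all others, where 2 of them had been among the highest before the regression. Sohlh2 and Lhx8 moved the same way.

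A limma fit to the batch-regressed values gave a difference in XX against XO of 2.47 for Figla, 1.70 for Sohlh2, 1.12 for Lhx8, -0.35 for Nobox and -0.04 for Sall4, and called all but the last at the unadjusted threshold. In that fit 44.1% of all tested genes were called, 3993 as higher in XX and 855 as higher in XO. Its p-values are too small, because the components removed from the values are not counted in the spread. The order XO above XX for Nobox was kept, with a much smaller difference, and the call of Sall4 was lost. In XY against XO the fit called Figla, Sohlh2 and Lhx8, each higher in XY, and gave -0.15 for Nobox, which was no longer called. Of all tested genes 44.0% were called in this contrast, 4173 as higher in XY and 662 as higher in XO.

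**Figure D4:**
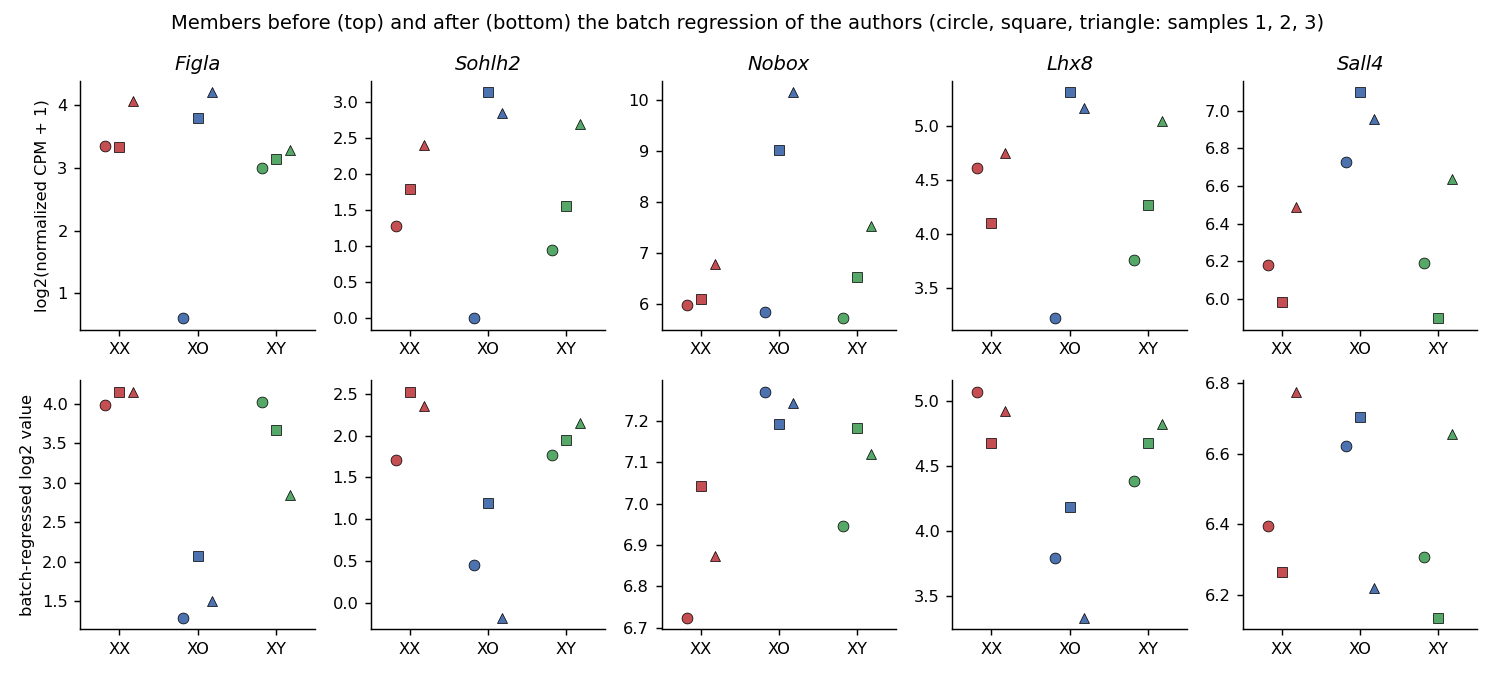
The 5 tested genes as log2(normalized CPM + 1) in the top row and as batch-regressed log2 values of the authors in the bottom row, per sample, with circle, square and triangle for samples 1, 2 and 3. The y axes do not start at 0. For Figla the XO samples move from a wide spread to between 1.30 and 2.07, below all XX and XY samples.

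Among all tested genes whose mean reached 10 normalized CPM, those whose profile over the 9 samples differed least from a member were found by the root mean square difference of centred log2(normalized CPM + 1). For Nobox they were Rps6, a ribosomal protein gene, at 0.122, and Aurka, which encodes the kinase Aurora A, at 0.136. Rps6 had 29.0 normalized CPM in XO1, 288 in XO2 and 561 in XO3, and between 30.3 and 53.9 in XX samples. For Sall4 they were AI314180 (0.116) and Ep300, which encodes a histone acetyltransferase (0.118), for Lhx8 Lrrfip2 (0.104) and Rcan3 (0.116), for Sohlh2 Gm39465 (0.176) and Gm11545 (0.186), and for Figla Gm37516 (0.276) and AC144461.2 (0.277). The points share their libraries and scaling factors, and the likeness is a description.

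Genes known to be controlled by these factors were listed next, and 13 of 15 were tested. Those called were Zp1 and Gdf9, both higher in XO, in XX against XO, and Bmp15 and Kdm6a (higher in XX) and Kdm5b (higher in XY) in XX against XY. In XY against XO, Kdm5b was higher in XY and Zp1, Gdf9 and Bmp15 were higher in XO. Of all tested genes 18.1% were called in XX against XO, 5.8% in XX against XY and 9.93% in XY against XO. The median log2 fold change of the tested targets was -0.42 in XX against XO, 0.05 in XX against XY and -0.63 in XY against XO, beside medians of all genes of -0.46, -0.19 and -0.30. Without XO1, 7 of the 15 were called in XX against XO and 8 of the 15 in XY against XO, beside 35.1% and 29.9% of all genes. The 7 include Mos, which is not one of the 13 and passed the filter in that fit. With spike-in totals, the calls of Zp1 and Gdf9 in XX against XO, of Kdm5b in XX against XY and of Gdf9 and Bmp15 in XY against XO were lost.

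The zona pellucida genes, targets of FIGLA that encode the egg coat, varied among XO samples as Nobox did. Zp1 had 49.2, 48.0 and 112 normalized CPM (XX), 14.0, 759 and 2166 (XO) and 26.0, 70.6 and 129 (XY). Its log2 fold change was -3.81 (SE 1.31, adjusted p = 0.214) in XX against XO and -3.70 (SE 1.30, adjusted p = 0.485) in XY against XO. Without XO1 these were -4.37 and -4.21, both called, and the first call was lost without XX1, XX2 or XO3 and the second without XO3, XY1 or XY2. Zp3, whose promoter with 3 upstream E-boxes is given above, had 64.5, 49.0 and 155 (XX), 12.4, 341 and 570 (XO) and 21.8, 73.6 and 169 (XY). It was not called, with -1.78 (SE 1.10, adjusted p = 0.386) in XX against XO and -1.80 (SE 1.10, adjusted p = 0.570) in XY against XO. Without XO1, Zp3 was called in both contrasts, at -2.32 and -2.28. For both genes XO1 was the lowest and XO3 the highest of the 9 samples.

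Zp2 followed another pattern, with 16343, 15914 and 17150 normalized CPM (XX), 4919, 14837 and 16248 (XO) and 10049, 16341 and 14911 (XY). Here XO2 and XO3 were not above the XX samples, and XO1 was again the lowest. No contrast of Zp2 was called, with 0.46 (SE 0.57) in XX against XO, 0.26 (SE 0.57) in XX against XY and 0.20 (SE 0.57) in XY against XO. Without XO1 the contrasts with XO gave 0.13 and -0.09, neither called.

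Gdf9 and Bmp15 encode growth factors that the oocyte sends to its granulosa cells. Gdf9, which NOBOX activates, had 252, 272 and 319 normalized CPM (XX), 339, 869 and 2432 (XO) and 234, 264 and 350 (XY). In normalized CPM all 3 XO samples were above the XX samples, a separation seen in 13.6% of all tested genes. In UMIs XO1, with 654, was below the 708, 778 and 1048 of the XX samples. The log2 fold change by edgeR was -2.11 (SE 0.62, adjusted p = 0.203) in XX against XO. In XY against XO it was -2.10 (SE 0.62, adjusted p = 0.485). Without XO1 the values were -2.53 and -2.49, both called. The study, by contrast, counts Gdf9 among genes without a difference between the genotypes in its RNA-seq analysis. Its qRT-PCR, relative to Ppia, also found none in oocytes of this size or larger. Bmp15, which is X-linked and whose promoter holds TAATTA, had 904, 810 and 1068 (XX), 633, 864 and 1165 (XO) and 367, 322 and 422 (XY).

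Bmp15 was thus low in all XY samples, without overlap with XX or XO. Its log2 fold change was 1.32 (SE 0.35, adjusted p = 0.408) in XX against XY, -1.26 (SE 0.34, adjusted p = 0.485) in XY against XO and 0.06 (SE 0.34), not called, in XX against XO. Without XO1 it was -1.39, called, in XY against XO.

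**Figure D5:**
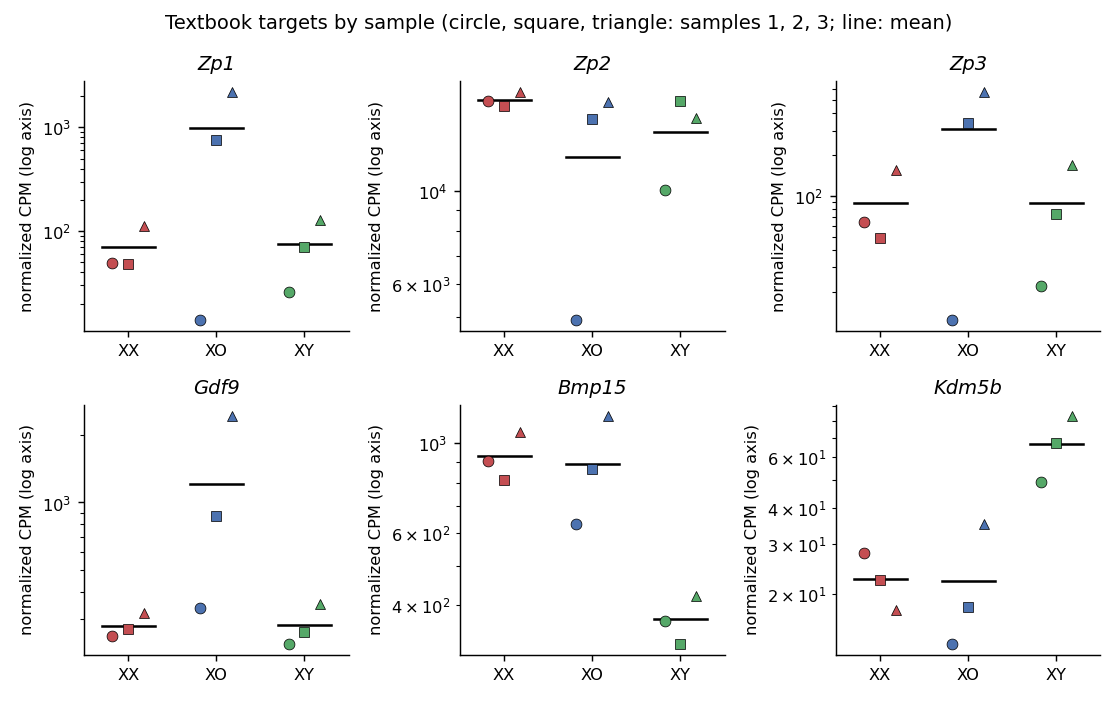
Normalized CPM (log axis) of Zp1, Zp2, Zp3, Gdf9, Bmp15 and Kdm5b in each sample, with circle, square and triangle for samples 1, 2 and 3 and a line for the mean of 3. XO1 is the lowest of the 9 samples for Zp1, Zp2, Zp3 and Kdm5b, Bmp15 is lowest in the 3 XY samples (322–422) and Kdm5b highest in them (49.3–83.3).

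Kdm5b and Kdm6a encode histone demethylases that SALL4 is known to repress in oocytes. Per the study, the Kdm5b reads of these oocytes covered only its last exons. Kdm5b had 27.8, 22.4 and 17.7 normalized CPM (XX), 13.5, 18.1 and 35.0 (XO) and 49.3, 67.4 and 83.3 (XY), so that every XY sample was above every other. The log2 fold change was -1.56 (SE 0.39, adjusted p = 0.395) in XX against XY and 1.59 (SE 0.40, adjusted p = 0.485) in XY against XO, while Sall4 gave -0.04 and -0.67 in the same contrasts. Kdm6a, which is X-linked and has the Y-linked homolog Uty, had 64.1, 74.6 and 64.6 (XX), 58.0, 40.8 and 35.6 (XO) and 45.5, 32.2 and 35.0 (XY). Its log2 fold change was 0.85 (SE 0.28, adjusted p = 0.629) in XX against XY and 0.60 (SE 0.28), not called, in XX against XO. The latter was called without XO1 (0.88), with TMM (1.01) and with spike-in totals (1.52). The call of Kdm5b in XY against XO remained without XO1.

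Of 23 partners and cofactors of the members, 13 were tested. In XX against XO 2 of the 13 were called, beside 18.1% of all genes, and in XX against XY 5.8% of all genes were called. Tcf4, an E-protein that pairs with bHLH factors, had a log2 fold change of -1.40 (SE 0.39, adjusted p = 0.203) in XX against XO. Ssbp2, whose protein binds the LDB1 complex used by LIM homeobox factors such as LHX8, had -1.47 (SE 0.30, adjusted p = 0.203) in XX against XO and -1.10 (SE 0.29, adjusted p = 0.425) in XX against XY. It had 43.5, 36.4 and 54.8 normalized CPM (XX), 120, 98.7 and 155 (XO) and 107, 80.4 and 102 (XY), so that both other genotypes were above XX in every sample. Without XO1 the values in XX against XO were -1.10 for Tcf4 and -1.46 for Ssbp2, both called, and with spike-in totals they were -0.60 and -0.44 and neither was called.

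Rlim, an X-linked ubiquitin ligase gene for LIM domain cofactors, was higher in XX than in XY by 0.98 on the log2 scale (SE 0.34, adjusted p = 0.681), as was Rbbp7, an X-linked subunit gene of histone deacetylase complexes that SALL4 recruits, by 0.98 (SE 0.39, adjusted p = 0.765). In XX against XO the values were 0.66 (SE 0.34) for Rlim and 0.58 (SE 0.39) for Rbbp7, neither called. Both were called there without XO1 (1.20 and 1.15), with TMM (1.04 and 0.96) and with spike-in totals (1.64 and 1.54). In XY against XO edgeR called 0 of the 13 partners at an unadjusted p below 0.05, beside 9.93% of all genes.

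Of 18 other regulators of transcription in oocytes, 16 were tested. In XX against XO 2 of the 16 were called, beside 18.1% of all genes. Stat3 was higher in XO than in XX (-1.93, SE 0.63, adjusted p = 0.203) and than in XY (-1.50, SE 0.62, adjusted p = 0.492). Its XO samples had 8.28, 25.8 and 58.7 normalized CPM, with XO1 again within the XX range of 6.41 to 10.7. Sub1, a transcriptional coactivator gene, was called in XX against XO (-0.93, SE 0.40, adjusted p = 0.268) and Gtf2a1l, the germ cell form of a TFIIA subunit, in XY against XO (-1.91, SE 0.71, adjusted p = 0.485), both higher in XO. Without XO1 all 4 of these calls remained, and with spike-in totals 0 of the 4 did. With the replicate block, 6 in place of 2 of the 16 were called in XY against XO, while the share of all genes called rose from 9.93% to 16.6%. In XX against XY edgeR called 0 of the 16, beside 5.8% of all genes.

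Of 18 other pluripotency factors, 15 had an entry and 9 were tested. In XX against XO 2 of the 9 were called, beside 18.1% of all genes, and in XY against XO 1, beside 9.93%. Dppa4 had 4.99, 2.10 and 4.57 normalized CPM (XX), 7.77, 53.8 and 88.6 (XO) and 4.65, 9.77 and 23.2 (XY), with a log2 fold change of -3.67 (SE 0.88, adjusted p = 0.203) in XX against XO and -1.97 (SE 0.80, adjusted p = 0.489) in XY against XO. Prdm14 was called in XX against XO (-1.46, SE 0.63, adjusted p = 0.268), with XO values of 8.80, 42.4 and 35.0. Without XO1 these were -4.14 and -2.39 for Dppa4 and -1.84 for Prdm14, all called. With spike-in totals the call of Dppa4 in XX against XO remained, at -2.87, but not that in XY against XO or that of Prdm14. In XX against XY edgeR called 0 of the 9, beside 5.8% of all genes. Of 21 relatives of the members from the same protein families, 11 had an entry, 3 were tested and 0 were called in any contrast. Of all tested genes 18.1% were called in XX against XO, 5.8% in XX against XY and 9.93% in XY against XO, so 0 of 3 says little.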

How the data were processed

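UMI counts of 9 pooled oocyte samples, labelled as biological triplicates of XX, XO and XY, were analysed, so p-values measure the spread between these pools. Per the labels and the methods of the study, the authors used HISAT2 and the GRCm38 build on stranded reads and deposited UMI counts per gene, with 79 ERCC spike-ins and 1 further entry that names no gene and held no UMIs. They also deposited a signal called normalized CPM, the counts divided by the gene total and the TMM factor of the spike-ins (recomputed values differed by at most 4.9e-11), and log2 values with batch effects regressed out. No column of values was left unused (0 columns). An XO column without a number was taken as XO1 from the sample label.

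Counts were tested with edgeR 4.0.16 (glmQLFit, glmQLFTest, filterByExpr by genotype, spike-in TMM factors, 1 fit of all 9 samples, two-sided) in R 4.3.3. limma 3.58.1, DESeq2 1.42.0 and sva 3.50.0 (1 surrogate variable) served as alternatives, with other scalings, filters, adjusted p, left-out samples and a replicate block. The limma fit to the batch-regressed values was added after the data were seen. Gene positions, strands and overlaps were taken from Gencode vM21 (GRCm38), which gave the deposited coordinates for all 7 members, and promoter sequences from RefSeq (GRCm38.p6).

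The members and lists were chosen with earlier results of these data known. Named were the members, called genes of each list (at most the 4 of smallest p per contrast), Zp1, Zp2, Zp3, Gdf9, Bmp15 and Kdm5b, and 2 genes most like each tested member. To see whether replicate numbers pair samples, deviations from the genotype means were correlated over the tested genes. XO and XY samples sharing a number gave 0.830, 0.278 and 0.773. The best XY sample of another number gave -0.231 for XO1, 0.721 for XO2 and 0.158 for XO3. Pairing by number thus held for XO1 and XO3 but not for XO2, and no source says what a number marks. XX and XO samples sharing a number gave 0.468, -0.447 and 0.679. The best XO sample of another number gave -0.423 for XX1, 0.526 for XX2 and 0.641 for XX3. XX and XY samples sharing a number gave 0.435, -0.0595 and 0.726, beside -0.0764, 0.497 and 0.0989 for the best XY sample of another number. In both, the shared number gave the higher value for XX1 and XX3 but not for XX2, by a small margin for XX3 with XO.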

Additional observations from a re-analysis of the deposited data

How the results depend on the processing

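The number of members called was 2 in XX against XO and 2 in XY against XO. It was 1 in both with TMM on the genes and with DESeq2 (Nobox each time), where TMM called 11.9 and 9.07% of all genes and DESeq2 13.7 and 10.2%. It was 0 in both with spike-in totals, where 3.12 and 1.24% of all genes were called, and after adjustment of p. The batch-regressed values gave 4 in XX against XO, where Figla, Sohlh2 and Lhx8 were higher in XX, and 3 in XY against XO. In these fits 44.1 and 44.0% of all genes were called. With sva they were 3 in XX against XO (Figla at 0.94, Nobox and Sall4) and 2 in XY against XO, beside 37.9 and 28.3% of all genes. Without the filter the 2 called in either contrast were Nobox and Pou5f1, not Sall4, beside 14.1 and 9.75% of all genes. Leaving out 1 sample gave 0 to 3 in XX against XO and 0 to 4 in XY against XO, while the share of all genes called ranged from 7.16% (without XX1) to 35.1% (without XO1) and from 3.23% (without XY2) to 29.9% (without XO1). The replicate block left 2 and 2 and changed no call of a member, though it called 16.6% in place of 9.93% of all genes in XY against XO. In XX against XY 0 members were called in every alternative. The causes of the changes were not tested.

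Directions turned as follows, on the log2 scale. In XX against XO, leaving out 1 sample gave -0.37 to 0.76 for Figla and -0.70 to 0.018 for Lhx8. Sohlh2 was 0.11 with spike-in totals, 0.72 with sva and 1.70 after batch regression. Lhx8 was 0.16 with TMM, 0.52 with spike-in totals, 0.060 with DESeq2, 0.20 with sva and 1.12 after batch regression. Sall4 was 0.26 with spike-in totals.

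In XX against XY, leaving out 1 sample gave -0.59 to 0.87 for Sohlh2, -0.81 to 0.15 for Nobox, -0.20 to 0.51 for Lhx8 and -0.22 to 0.20 for Sall4. Sohlh2 was 0.11 with TMM, 0.54 with spike-in totals, 0.18 with DESeq2, 0.058 with the replicate block, 0.17 with sva and 0.24 after batch regression. Nobox was 0.16 with spike-in totals. Sall4 was 0.13 with TMM, 0.68 with spike-in totals, 0.14 with DESeq2 and 0.11 after batch regression.

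In XY against XO, leaving out 1 sample gave -0.87 to 0.23 for Figla. With sva the values were 0.40 for Figla, 0.55 for Sohlh2 and 0.11 for Lhx8, and after batch regression 1.89, 1.47 and 0.86.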
